A study of Mus musculus with 18 samples.

Results

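The aryl hydrocarbon receptor (AhR) and the genes read together with it were followed in the livers of mice given carbon tetrachloride (CCl4), with and without an oral medicine. The 7 genes were chosen by symbol: the receptor Ahr, its DNA-binding partner Arnt, its repressors Ahrr and Tiparp, and its cytochrome P450 targets Cyp1a1, Cyp1a2 and Cyp1b1. All 7 were among the 54752 genes of the count table and among the 21840 genes that passed the filter on low counts. All mice were male C57BL/6 mice, 6 weeks old at the start, 45 in all and 15 per group. In the group called CCl4_PTH, mice received CCl4 into the peritoneum 2 times per week and PTH by gavage every day. In the CCl4 group, mice received the same injections and double distilled water by gavage. In the control group, mice received olive oil injections on the same schedule and double distilled water by gavage. PTH and PZH both appear in the labels for the same preparation, as it was understood here: the traditional Chinese medicine Pien Tze Huang. Liver was taken in week 22 from 6 mice of each group, so the 18 libraries are separate mice. Neither the presence of tumour in the sampled tissue nor the time since the last injection is given in the sources used here.

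AhR is a transcription factor that waits in the cytoplasm, bound to heat shock protein 90 and its helpers, until a small aromatic molecule binds it. With its ligand it moves to the nucleus, pairs with ARNT and binds the xenobiotic response element, whose core is GCGTG. Ligands include dioxins and other pollutants, plant indoles and products of tryptophan breakdown. The CYP1 enzymes it induces oxidise many of these ligands, and AHRR and TIPARP are induced as well and dampen the receptor. In mouse liver Cyp1a2 is made without any added ligand, mostly by hepatocytes near the central vein, and Cyp1a1 is low until a ligand is given. Cyp1b1 is low in hepatocytes and better known from mesenchymal cells, hepatic stellate cells among them. CCl4 is itself activated by a cytochrome P450, CYP2E1, in the pericentral hepatocytes, which are the cells it injures first.

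Total counts ran from 67229863 to 118877267 per library, and loci of ribosomal RNA took 30.6% to 55.8% of them. Levels are given as CPM, the usual counts scaled to library size, here after correction of library size by the TMM method of edgeR, and 1 CPM was worth 51.2 to 149 counts. Library CCl4_PTH 1 stood apart from the other 5 of its group: its neutrophil markers summed to 140 CPM, against at most 11.4 CPM in the others, and its pericentral hepatocyte markers to 1500 CPM, against at least 2510 CPM. Results that rest on it are given with and without it. The labelled tissue had its defining markers, since 8 hepatocyte markers summed to 38100 to 55400 CPM in CCl4_PTH, 22500 to 54500 CPM in CCl4 and 49900 to 63300 CPM in control livers. In whole liver, fewer cells of a type and less RNA per cell cannot be told apart.

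The promoters are shown because the receptor acts through a defined sequence, and the members differ in whether they carry its core close to the start. RefSeq windows of build GRCm38.p6, 250 bases before to 50 bases after the annotated start, were matched for 6 of the 7 members. Each is written 5′ to 3′ on the strand of its gene, and capitals mark GCGTG or, where the core lies on the other strand, CACGC.
Cyp1a1: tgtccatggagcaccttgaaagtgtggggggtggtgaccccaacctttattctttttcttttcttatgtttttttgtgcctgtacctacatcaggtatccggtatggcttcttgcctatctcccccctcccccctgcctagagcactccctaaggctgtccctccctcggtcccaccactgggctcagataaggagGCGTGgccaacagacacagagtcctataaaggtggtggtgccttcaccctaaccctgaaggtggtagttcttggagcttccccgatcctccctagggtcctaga
Cyp1a2: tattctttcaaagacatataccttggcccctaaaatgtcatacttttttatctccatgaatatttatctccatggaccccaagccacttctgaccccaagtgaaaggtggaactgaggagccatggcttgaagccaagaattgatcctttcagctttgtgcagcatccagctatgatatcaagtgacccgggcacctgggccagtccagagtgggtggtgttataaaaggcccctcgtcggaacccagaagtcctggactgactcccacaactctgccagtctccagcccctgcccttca
Cyp1b1: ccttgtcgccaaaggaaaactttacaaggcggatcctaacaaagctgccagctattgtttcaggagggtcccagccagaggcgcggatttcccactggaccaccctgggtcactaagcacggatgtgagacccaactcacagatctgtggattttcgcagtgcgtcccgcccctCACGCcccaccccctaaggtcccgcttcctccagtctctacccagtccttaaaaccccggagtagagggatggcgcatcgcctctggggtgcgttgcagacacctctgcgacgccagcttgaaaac
Ahrr: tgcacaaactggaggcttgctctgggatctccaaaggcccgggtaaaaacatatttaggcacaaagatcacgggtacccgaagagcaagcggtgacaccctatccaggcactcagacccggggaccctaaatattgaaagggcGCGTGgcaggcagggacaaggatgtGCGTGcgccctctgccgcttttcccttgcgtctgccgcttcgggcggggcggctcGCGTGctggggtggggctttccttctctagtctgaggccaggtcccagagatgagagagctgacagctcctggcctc
Tiparp: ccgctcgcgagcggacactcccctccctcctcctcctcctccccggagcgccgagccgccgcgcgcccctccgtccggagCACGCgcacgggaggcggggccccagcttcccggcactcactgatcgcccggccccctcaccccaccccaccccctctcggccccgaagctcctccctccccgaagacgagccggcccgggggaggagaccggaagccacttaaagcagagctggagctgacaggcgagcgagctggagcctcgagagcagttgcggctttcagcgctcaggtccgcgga
Positions are counted back from the start, with -1 for the base just before it. Cyp1a1 (chr9:57697363-57697662, plus strand) had 1 core at positions -54 to -50. Cyp1a2 (chr9:57683606-57683905, minus strand), its neighbour on the same chromosome, had 0 cores in the window. Cyp1b1 (chr17:79715012-79715311, minus strand) had 1 core on the other strand at -76 to -72, and Tiparp (chr3:65528197-65528496, plus strand) had 1 there at -170 to -166. Ahrr (chr13:74292282-74292581, minus strand) had 3 cores, at -107 to -103, -82 to -78 and -27 to -23, and 1 match to the longer motif TNGCGTG, which contains one of these cores. Arnt, not printed, had 1 core at -29 to -25. Of the 32851 promoter windows in the table, searched on both strands, 32.4% held the core, 5.07% held TNGCGTG and 3.91% held at least 3 cores. A match is a description of the letters and not a bound site, and the best known response elements of Cyp1a1 in the mouse lie further upstream than this window.

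Per length of exon, Cyp1a2 was on average the most abundant of the 7 transcripts in each group. It averaged 106 CPM per kilobase in CCl4_PTH, 46.9 in CCl4 and 119.9 in control livers. Ahr (5.53, 5.43 and 5.48 CPM per kilobase) and Arnt (4.49, 4.04 and 4.06) came next, in the same order of groups. Tiparp averaged 1.89, 1.86 and 1.06 CPM per kilobase and Cyp1b1 1.16, 1.76 and 0.189. Cyp1a1 (0.179, 0.342 and 0.204) and Ahrr (0.0282, 0.0504 and 0.0254) were the lowest in CCl4_PTH and CCl4 livers, whereas in control livers the means of Cyp1a1 and Cyp1b1 lay within their spreads of each other (SD 0.0746 and 0.0667). The receptor and its partner were thus present at similar levels in all groups, while the targets ranged from the most to the least abundant of the 7.

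In CCl4 livers against control livers, 3 of the 7 genes passed the edgeR test (quasi-likelihood, Benjamini-Hochberg adjusted p under 0.05 over all 21840 genes), where 47.4% of all genes passed. Cyp1b1 and Tiparp were higher, by 9.26-fold and 1.75-fold, and Cyp1a2 was 2.56-fold lower. The background was 26.3% of genes higher and 21.2% lower, so the count of 3 of 7 is close to the share of all genes. Without library CCl4_PTH 1 the same 3 members were called, against 49.2% of all genes. Ahr and Arnt, the receptor itself, differed by less than the spread between livers.

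In CCl4_PTH livers against CCl4 livers, 0 of the 7 genes passed in edgeR, where 12.1% of all genes did (7.1% higher and 4.95% lower). At an unadjusted p under 0.05, 2 members differed (Cyp1a2 higher, Cyp1a1 lower), and DESeq2 called 0. Without CCl4_PTH 1, Cyp1a2 alone was called, 2.73-fold higher, where 17.4% of all genes passed. In CCl4_PTH livers against control livers, 2 of the 7 were called, Cyp1b1 and Tiparp, both higher, where 27.7% of all genes were called (17.4% higher and 10.3% lower). Without CCl4_PTH 1 only Cyp1b1 was called of the 7, against 26% of all genes. The CCl4 comparisons share livers with each other, so the 3 sets of values are not independent. The plot of fold changes gives all 21 estimates.

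**Figure D1:**
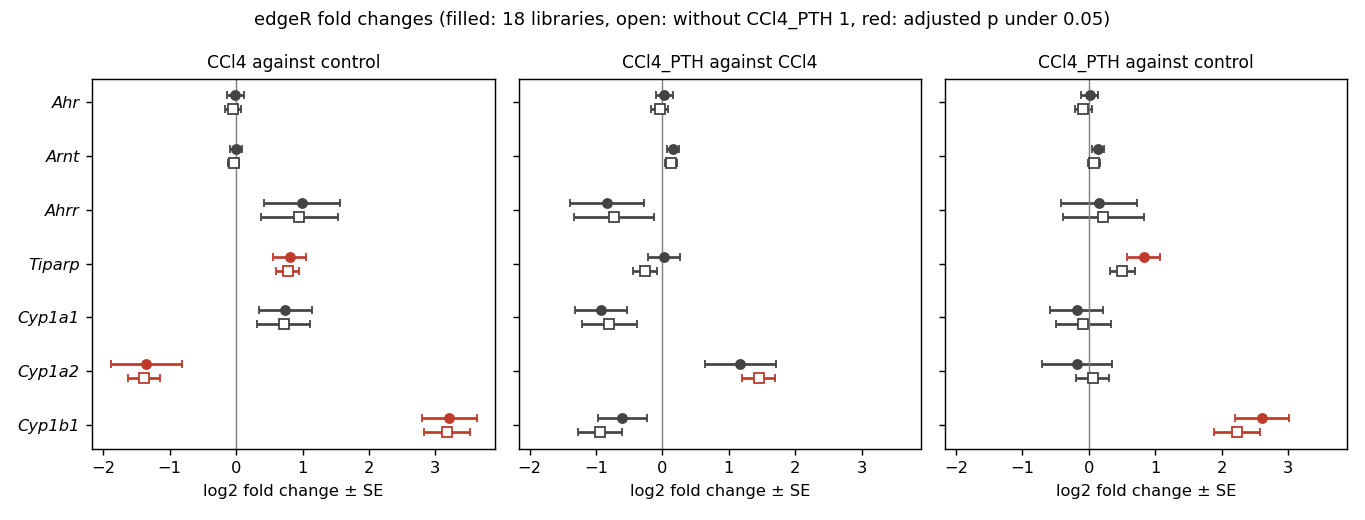
Log2 fold change (x axis) ± standard error of each of the 7 genes in the 3 comparisons. Filled circles come from all 18 libraries, open squares from the fit without CCl4_PTH 1, and red marks an adjusted p under 0.05. Cyp1b1 lay furthest to the right in both comparisons with control livers, and Cyp1a2 (-1.36) was the only member called lower.

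The receptor gene Ahr lies on chr12:35497974-35535038 (minus strand, GRCm38), with the antisense gene Gm48236 over part of its exons. Its level ran from 25.4 CPM to 44.0 CPM (median 33.2) in CCl4_PTH livers, from 23.1 to 39.8 CPM (median 34.5) in CCl4 livers and from 28.3 to 37.5 CPM (median 34.9) in control livers. The 3 groups overlapped almost completely, and the highest value was that of CCl4_PTH 1. The log2 fold change in CCl4 against control livers was -0.01 ± 0.13 (standard error, edgeR adjusted p = 0.942), with a 95% interval of -0.27 to 0.24. Between CCl4_PTH and CCl4 livers it was 0.03 ± 0.13 (edgeR adjusted p = 0.924). Because the counts may not have used strand, reads of the antisense gene could be part of these values.

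Arnt encodes the partner that AhR needs to bind DNA and that the hypoxia factors share (chr3:95434388-95497240, plus strand). Its level ran from 33.0 to 42.1 CPM (median 35.2) in CCl4_PTH livers, from 27.6 to 37.8 CPM (median 32.9) in CCl4 livers and from 27.5 to 37.4 CPM (median 33.1) in control livers. Among the 7 genes Arnt varied least within groups, with coefficients of variation of 8.95%, 12.1% and 10.1% in that order of groups. The log2 fold change was -0.01 ± 0.09 in CCl4 against control livers (edgeR adjusted p = 0.952) and 0.15 ± 0.09 in CCl4_PTH against CCl4 livers (edgeR adjusted p = 0.296). For Arnt as for Ahr, the group medians differed by less than the spread within a group.

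Scaling decides what may be said of them. With library sizes only and no TMM factors, the median of all genes in CCl4 against control livers moved to 0.63 on the log2 scale, against 0.05 with TMM. Ahr (0.56) and Arnt (0.55) then passed the threshold, and both were still below that median. The statement that their levels were similar is therefore one relative to most other genes.

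Ahrr (chr13:74211118-74292331, minus strand) encodes the repressor that competes with AhR for ARNT, and it carried the most cores of the promoters shown. It was also the least abundant member, with 9 to 70 counts per library in CCl4_PTH, 7 to 95 in CCl4 and 4 to 25 in control livers. These are 0.0701 to 0.469 CPM (median 0.264), 0.0751 to 0.919 CPM (median 0.550) and 0.0781 to 0.383 CPM (median 0.241). In 4 of the 6 CCl4 livers Ahrr was above every control liver, and in 1 it was below them all. The log2 fold change of 0.99 ± 0.57 in CCl4 against control livers did not pass (edgeR adjusted p = 0.168), and its interval ran from -0.14 to 2.12. Between CCl4_PTH and CCl4 livers it was -0.84 ± 0.56 (edgeR adjusted p = 0.362). With library sizes only, Ahrr was called higher in CCl4 against control livers (1.67, edgeR adjusted p = 0.0241), where the median of all genes was 0.63. What size of difference could be detected with this spread was not tested.

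Within each library the log2 level of Ahrr relative to Ahr gave the same picture. It averaged -7.15 ± 0.79 in CCl4_PTH, -6.58 ± 1.64 in CCl4 and -7.35 ± 1.03 in control livers (SD, n = 6). The difference in CCl4 against control livers was 0.76 (two-sided exact permutation test, p = 0.335). This was one of 15 such tests, 5 ratios in 3 comparisons, and after Benjamini-Hochberg adjustment over the 15 it gave p = 0.559 in the same exact permutation test.

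Tiparp (chr3:65528410-65555518, plus strand) encodes an ADP-ribosyltransferase that AhR induces and that modifies AhR and lowers its activity. Its level ran from 5.84 to 16.3 CPM (median 6.86) in CCl4_PTH livers, from 5.52 to 10.6 CPM (median 7.94) in CCl4 livers and from 3.26 to 6.34 CPM (median 4.29) in control livers. The 16.3 CPM belonged to CCl4_PTH 1, and the other 5 livers of that group lay between 5.84 and 7.29 CPM. In 5 of the 6 CCl4 livers Tiparp was above every control liver. The log2 fold change in CCl4 against control livers was 0.81 ± 0.25 (edgeR adjusted p = 0.0122). Between CCl4_PTH and CCl4 livers it was 0.02 ± 0.25 (edgeR adjusted p = 0.963), with an interval of -0.46 to 0.51.

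Against control livers, Tiparp in CCl4_PTH livers was higher by 0.83 ± 0.25 (edgeR adjusted p = 0.0182). Without CCl4_PTH 1 the difference was 0.51 ± 0.18 and missed the threshold (edgeR adjusted p = 0.0501). An antisense gene, 4931440P22Rik, overlaps Tiparp, and its reads may be counted here. Of 6 other ADP-ribosyltransferase relatives tested, 3 rose and 0 fell in CCl4 against control livers, where 47.4% of all genes were called, with a list median of 0.39, against 0.05 over all genes. Parp11 averaged 7.89 ± 3.64 CPM in CCl4 livers and 3.05 ± 0.437 CPM in control livers (SD, n = 6), a log2 fold change of 1.37 ± 0.24 (edgeR adjusted p = 0.000106). Parp14, like Parp12 an interferon-responsive member, averaged 70.8 ± 29.8 CPM and 33.4 ± 5.65 CPM in the same groups, and its fold change was 1.09 ± 0.22 (edgeR adjusted p = 0.000516). Between CCl4_PTH and CCl4 livers edgeR called 0 of the 6, where 12.1% of all genes were called, with 0 at an unadjusted p under 0.05. DESeq2 called 0 of them as well.

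**Figure D2:**
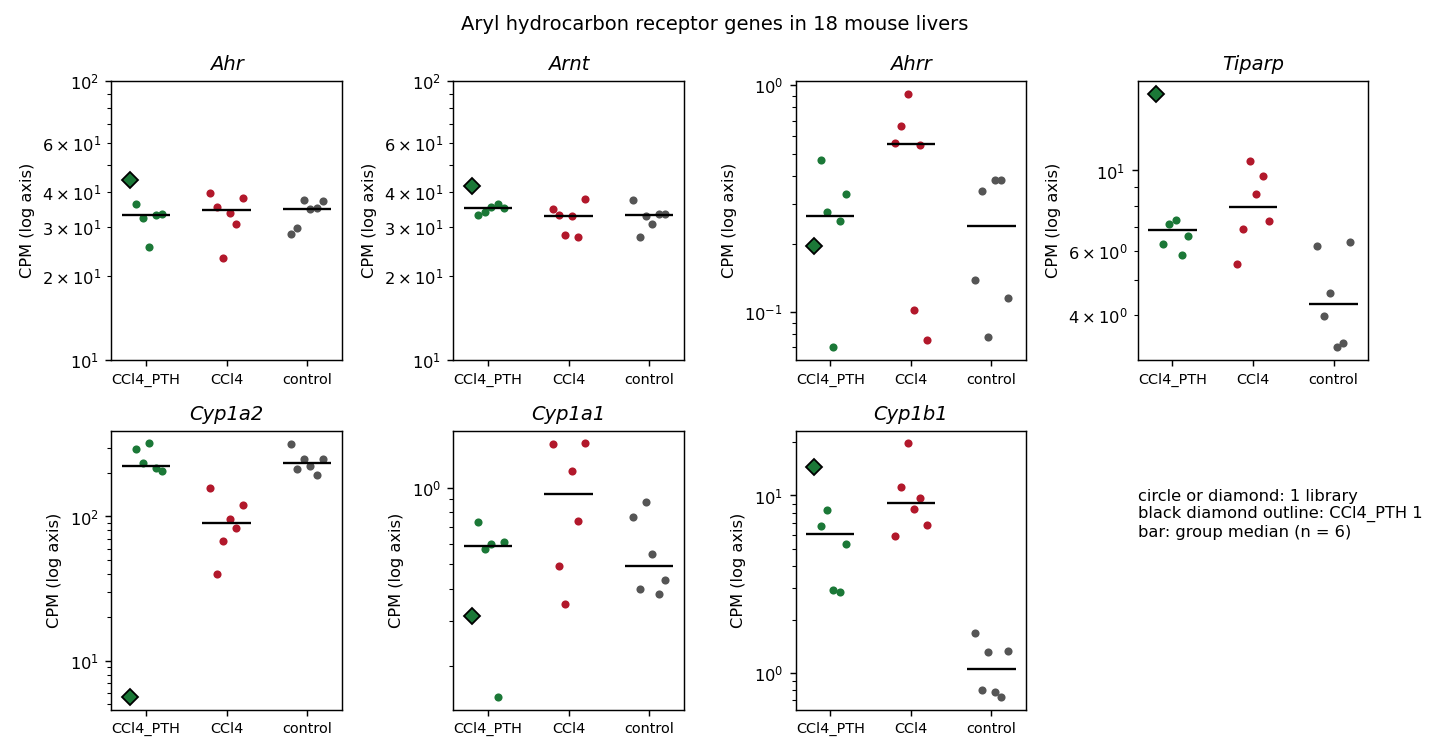
CPM of the 7 genes in each of the 18 livers, on log axes, with the group median as a bar and CCl4_PTH 1 as an outlined diamond. In the Cyp1a2 panel that liver (5.63 CPM) lies below all others, and in the Cyp1b1 panel all 12 livers given CCl4 lie above the 6 control livers.

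Cyp1a2 (chr9:57676937-57683703, minus strand), the enzyme known for oxidising caffeine and aromatic amines, ran from 39.9 to 158 CPM (median 89.8) in CCl4 livers and from 194 to 317 CPM (median 236) in control livers. The groups did not overlap: all 6 CCl4 livers were below the lowest control liver. The means were 94.3 ± 41.3 CPM and 241 ± 42.6 CPM (SD, n = 6), a log2 fold change of -1.36 ± 0.53 (edgeR adjusted p = 0.045). Without CCl4_PTH 1, which adds to the shared estimate of spread, the change was -1.38 ± 0.24 (edgeR adjusted p = 0.000121), and with only CCl4 and control libraries fitted it was -1.36 ± 0.26 (edgeR adjusted p = 0.000641). With all groups in the fit, the call was lost in 10 of 18 fits that left out 1 library, namely control 1, 2, 3, 4 or 8, CCl4 2, 4, 5 or 7, or CCl4_PTH 7 (adjusted p between 0.0521 and 0.0977), and with library sizes only it was -0.83 (edgeR adjusted p = 0.21). It was also lost with no filter on low counts (-1.36, edgeR adjusted p = 0.0847) and without controls 1 and 8, an alternative chosen after seeing the data (-1.26, edgeR adjusted p = 0.108).

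In CCl4_PTH livers Cyp1a2 ran from 5.63 to 321 CPM (median 224). The lowest value, 661 counts, was CCl4_PTH 1, and the other 5 livers held 207 to 321 CPM. Those 5 were all above the highest CCl4 liver (158 CPM) and overlapped with the control livers (194 to 317 CPM). With all 6, the log2 fold change against CCl4 livers was 1.17 ± 0.53 and did not pass (edgeR adjusted p = 0.163). Without CCl4_PTH 1 it was 1.45 ± 0.25 (edgeR adjusted p = 0.000809), with means of 254 ± 50.6 CPM (n = 5) in CCl4_PTH and 94.3 ± 41.3 CPM (n = 6) in CCl4 livers. Against control livers the difference was -0.18 ± 0.52 with all 6 (edgeR adjusted p = 0.832) and 0.06 ± 0.25 without CCl4_PTH 1 (edgeR adjusted p = 0.884).

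Cyp1a2 was next set against other hepatocyte transcripts of the same library, which needs no scaling between libraries. Its log2 CPM minus the mean log2 CPM of 8 hepatocyte markers (apolipoproteins, albumin and the like) averaged -4.49 ± 0.57 in CCl4 livers and -3.63 ± 0.26 in control livers (SD, n = 6). The difference of -0.86 passed after adjustment over the 15 ratio tests (exact permutation test, p = 0.00649, adjusted p = 0.0433). Leaving out control 2, 3, 4 or 8 ended that call, with adjusted p between 0.0541 and 0.0649. In CCl4_PTH against CCl4 livers the difference was 0.34 with all 6 livers (exact permutation test, adjusted p = 0.991). Without CCl4_PTH 1 it was 1.33 (exact permutation test, adjusted p = 0.0216, again over 15 tests, those of CCl4 against control unchanged). Also without that library, the difference in CCl4_PTH against control livers was 0.47 (exact permutation test, adjusted p = 0.0417), against -0.52 with it (exact permutation test, adjusted p = 0.991).

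Against 10 markers of pericentral hepatocytes the order of CCl4 and control livers was the opposite. Of these markers, 8 fell and 0 rose in CCl4 against control livers, where 21.2% of all genes fell and 26.3% rose. Their median log2 fold change was -1.92, against 0.05 over all genes. Glul, the glutamine synthetase of the cells next to the central vein, averaged 67.5 ± 22.4 CPM in CCl4 livers and 708 ± 59.4 CPM in control livers. The markers summed to 321 to 973 CPM in CCl4 livers and 4610 to 8300 CPM in control livers, with 0 markers at 0 counts throughout either group. Cyp1a2 relative to them averaged 2.69 ± 0.77 in CCl4 livers and 1.303 ± 0.33 in control livers, a difference of 1.39 (exact permutation test, p = 0.00866, adjusted p = 0.0433). The markers themselves differed widely, with log2 fold changes of -8.12 for Slc1a2 but -0.92 for Gulo, -0.51 for Rhbg and 0.03 for Axin2, the last 3 all above the -1.36 of Cyp1a2. Leaving out control 2, 3, 4, 5 or 8, or CCl4 4, 5, 7 or 8, ended the call (adjusted p between 0.0541 and 0.0812).

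In CCl4_PTH against CCl4 livers, 9 of the 10 pericentral markers rose, where 7.1% of all genes rose. Their median was 1.81, against -0.03 over all genes. Their sum was 1500 to 3540 CPM in CCl4_PTH livers. Cyp1a2 relative to them differed by -1.59 (exact permutation test, p = 0.026, adjusted p = 0.0779), and by -0.87 without CCl4_PTH 1 (exact permutation test, adjusted p = 0.0866). Leaving out CCl4 2 or CCl4_PTH 6 instead brought it past the threshold, at -1.89 (exact permutation test, adjusted p = 0.0325) and -1.82 (exact permutation test, adjusted p = 0.039). What part of the Cyp1a2 level follows the number of pericentral cells was not tested.

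**Figure D3:**
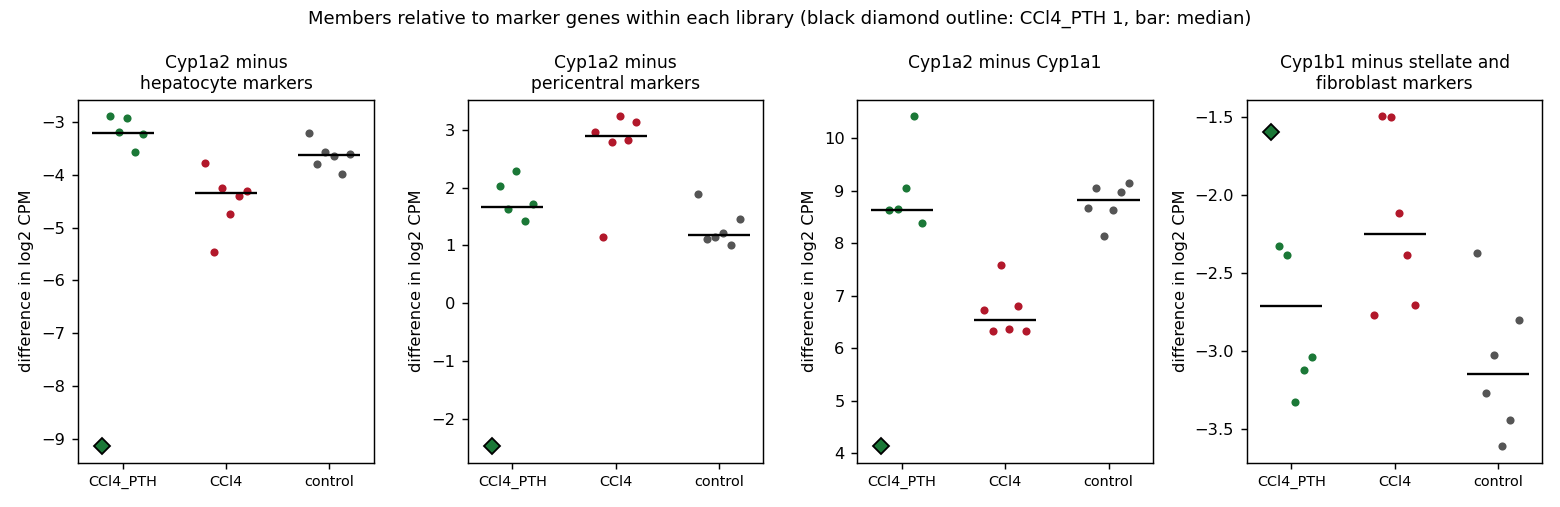
Log2 CPM of Cyp1a2 minus the mean of hepatocyte markers, minus the mean of pericentral markers and minus Cyp1a1, and of Cyp1b1 minus the mean of stellate cell and fibroblast markers, in each library, with the median as a bar. CCl4_PTH 1 (outlined diamond) was the lowest of all 18 libraries in the 3 Cyp1a2 panels. In the Cyp1a2 minus Cyp1a1 panel the CCl4 libraries (6.32 to 7.58) lay below all control libraries (8.15 to 9.15).

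Cyp1a1 (chr9:57687928-57703824, plus strand), the classic inducible readout of AhR, stayed low in all groups. Its level ran from 0.151 to 0.737 CPM (median 0.588) in CCl4_PTH livers, from 0.348 to 1.49 CPM (median 0.948) in CCl4 livers and from 0.382 to 0.879 CPM (median 0.492) in control livers. These are 12 to 110, 36 to 139 and 21 to 66 counts per library. The groups overlapped, with 3 of the 6 CCl4 livers above every control liver and 1 below them all. The log2 fold change was 0.74 ± 0.40 in CCl4 against control livers (edgeR adjusted p = 0.134) and -0.92 ± 0.39 in CCl4_PTH against CCl4 livers (edgeR adjusted p = 0.133). Their 95% intervals, before adjustment over genes, were -0.04 to 1.52 and -1.69 to -0.15.

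In CCl4 against control livers the group means of the 2 Cyp1a genes differed in opposite directions, although the Cyp1a1 difference was not called. Within the CCl4 group, CCl4 1 and CCl4 8 held the highest levels of both Cyp1a2 (158 and 121 CPM) and Cyp1a1 (1.48 and 1.49 CPM). The log2 ratio of Cyp1a2 to Cyp1a1 averaged 6.69 ± 0.48 in CCl4 livers and 8.77 ± 0.37 in control livers (SD, n = 6), and the ranges did not overlap. The difference of -2.08 had the smallest p that 924 permutations can give (exact permutation test, p = 0.00216, adjusted p = 0.0325), and the call was kept in each of the 12 tests that left out 1 library. Between CCl4_PTH and CCl4 livers the ratio differed by 1.52 (exact permutation test, adjusted p = 0.281), and by 2.34 without CCl4_PTH 1 (exact permutation test, adjusted p = 0.0162). The genes are near-copies in part: 152 of the 31-base stretches in their exons are shared, 5.52% of those of Cyp1a1 and 7.67% of those of Cyp1a2, with a longest shared run of 137 bases. Because Cyp1a2 is far more abundant, misplaced reads would weigh most on Cyp1a1, and how the counting treated them was not stated.

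Cyp1b1 (chr17:79701537-79715061, minus strand), which oxidises oestrogens and polycyclic hydrocarbons, had the largest difference of the 7. Its level ran from 2.86 to 14.5 CPM (median 6.04) in CCl4_PTH livers, from 5.94 to 19.6 CPM (median 9.03) in CCl4 livers and from 0.733 to 1.68 CPM (median 1.05) in control livers. All 12 livers given CCl4 were above all 6 control livers. The log2 fold change in CCl4 against control livers was 3.21 ± 0.41 (edgeR adjusted p = 6.39e-06), and in CCl4_PTH against control livers it was 2.61 ± 0.40 (edgeR adjusted p = 0.000152). Both were called without CCl4_PTH 1, at 3.18 ± 0.34 and 2.23 ± 0.34.

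Between the groups given CCl4, the difference in Cyp1b1 did not pass. It was -0.60 ± 0.37 in CCl4_PTH against CCl4 livers (edgeR adjusted p = 0.312) and -0.95 ± 0.33 without CCl4_PTH 1 (edgeR adjusted p = 0.0569), which held the highest Cyp1b1 of its group at 14.5 CPM. The interval without it, -1.59 to -0.30, lies below 0 before adjustment. The 2 lowest livers, CCl4_PTH 6 and 7, held 2.94 and 2.86 CPM, still above the highest control liver at 1.68 CPM.

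Most markers of stellate cells and fibroblasts were, like Cyp1b1, higher in both groups given CCl4 than in control livers. Of 11 markers, 9 rose in CCl4 against control livers with a median of 2.31, where 26.3% of all genes rose. In CCl4_PTH against control livers 10 rose with a median of 1.98, where 17.4% of all genes rose. Without CCl4_PTH 1, 9 rose with a median of 1.91, where 26% of all genes were called in either direction. In CCl4_PTH against CCl4 livers edgeR called 0 (2 at an unadjusted p under 0.05, 0 in DESeq2), where 12.1% of all genes were called. The median there was -0.20. They summed to 568 to 1100 CPM in CCl4_PTH, 583 to 1010 CPM in CCl4 and 268 to 334 CPM in control livers, and 0 of them were at 0 counts throughout a group. Lum, a matrix proteoglycan of fibroblasts, averaged 39.0 ± 9.8 CPM in CCl4 livers and 3.29 ± 0.837 CPM in control livers. Relative to the mean of these markers in the same library, Cyp1b1 averaged -2.16 ± 0.56 in CCl4 livers and -3.08 ± 0.45 in control livers, a difference of 0.92 (exact permutation test, p = 0.013, adjusted p = 0.0487). That call ended when control 2, 3, 4, 5 or 8, or CCl4 2, 4, 5, 7 or 8, was left out (adjusted p between 0.0541 and 0.0893). The markers themselves differed widely in CCl4 against control livers, with log2 fold changes of 4.71 for Col1a1 but 0.24 for Lrat and -0.16 for Reln. Col1a1, Col1a2, Col3a1 and Lum rose by more than the 3.21 of Cyp1b1, and the other markers lay below it. Macrophage markers summed to 137 to 206 CPM in CCl4_PTH, 160 to 274 CPM in CCl4 and 55.6 to 93.6 CPM in control livers. Neutrophil markers summed to 4.12 to 140, 5.46 to 66.5 and 0.42 to 1.04 CPM in the same order, and the 140 CPM were those of CCl4_PTH 1, the liver with the most Cyp1b1 of its group. Of these 4 markers, Ly6g was at 0 counts in all control livers. Cholangiocyte markers summed to 10.1 to 21.4, 14.1 to 24.1 and 4.68 to 9.35 CPM, T and NK cell markers to 1.17 to 8.26, 2.11 to 22.4 and 1.16 to 2.17 CPM, and endothelial markers to 172 to 278, 184 to 222 and 202 to 233 CPM, in the same order of groups. The part of any cell type in the Cyp1b1 level was not tested.

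Of the 5 genes of the cytoplasmic complex that holds AhR, 2 rose and 0 fell in CCl4 against control livers, with a median of 0.10, where 47.4% of all genes were called. Src, the kinase bound in that complex, averaged 10 ± 3.87 CPM in CCl4 livers and 1.94 ± 0.41 CPM in control livers, a log2 fold change of 2.37 ± 0.24 (edgeR adjusted p = 5.55e-07). Hsp90aa1, the inducible heat shock protein 90, rose by 0.75 ± 0.23 (edgeR adjusted p = 0.0126), and the co-chaperone Ptges3 had -0.08 ± 0.10 (edgeR adjusted p = 0.502). With all libraries, Src was also the only gene of the 5 called in CCl4_PTH against CCl4 livers, at 5.49 ± 1.48 CPM and 10 ± 3.87 CPM, a change of -0.87 ± 0.23 (edgeR adjusted p = 0.0199), where 12.1% of all genes were called. Without CCl4_PTH 1, Hsp90aa1 was called lower as well, at -0.72 (edgeR adjusted p = 0.021). With library sizes only, all 5 were called higher in CCl4 against control livers, where 11278 of the 21840 genes were called higher. Src is made by many cell types, and their part in its level was not tested.

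Among the bHLH-PAS relatives, the family of sensors and clock factors to which AhR and ARNT belong, 10 of 13 genes passed the filter. In CCl4 against control livers 4 of them rose and 1 fell, a share near the 47.4% of all genes, with a median of 0.89, against 0.05 over all genes, and the lower call, on the hypoxia factor Epas1, was absent with library sizes only. Arnt2, a second form of ARNT best known from neurons and kidney, had 113 to 213 counts per library in CCl4 livers and 0 to 5 in control livers, 4 of which held 0 (edgeR adjusted p = 1e-06). In CCl4_PTH livers it had 35 to 234 counts. The clock factor Arntl, also called BMAL1, averaged 6.36 ± 1.45 CPM in CCl4 livers and 1.57 ± 0.997 CPM in control livers, a log2 fold change of 2.03 ± 0.40 (edgeR adjusted p = 0.000445). Its relative Npas2 changed by 2.49 ± 0.55 (edgeR adjusted p = 0.00104). Both genes cycle over the day, and the time of day of sampling was not stated. Of the 10, edgeR called 0 in CCl4_PTH against CCl4 livers (2 at an unadjusted p under 0.05, 0 in DESeq2), where 12.1% of all genes were called. Without CCl4_PTH 1, Arntl was called lower in that comparison (-1.20, edgeR adjusted p = 0.0177), and 1 gene was called lower without controls 1 and 8. In CCl4_PTH against control livers 3 of the 10 were called, where 27.7% of all genes were, or 1 without CCl4_PTH 1 and 1 without controls 1 and 8.

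Of 13 coregulators and partners of AhR, 4 rose and 2 fell in CCl4 against control livers, with a median of 0.12. That share is near the 47.4% of all genes. With library sizes only 12 rose and 0 fell, where 11278 of the 21840 genes were called higher and 1061 lower. Klf6, a zinc finger factor that binds DNA with AhR at non-classical sites, averaged 34.0 ± 11.2 CPM in CCl4 livers and 7.14 ± 1.34 CPM in control livers (2.25 ± 0.24, edgeR adjusted p = 1.14e-06). Relb, the NF-kappaB subunit that can pair with AhR, rose by 1.98 ± 0.24 (edgeR adjusted p = 2.76e-06). The coactivator Ncoa2 was lower, with -0.37 ± 0.08 (edgeR adjusted p = 0.000536). In CCl4_PTH against CCl4 livers 1 of the 13 rose and 2 fell, with a median of -0.11, where 12.1% of all genes were called. Klf6 was lower in CCl4_PTH than in CCl4 livers, at 20.2 ± 7.88 CPM and 34.0 ± 11.2 CPM (-0.75 ± 0.23, edgeR adjusted p = 0.0419), and Ncoa2 was higher (0.29 ± 0.08, edgeR adjusted p = 0.0177). Both were called in the same directions without CCl4_PTH 1. But with library sizes only, 0 of the 13 were called in that comparison, where 476 of the 21840 genes were called higher and 622 lower.

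Beyond the CYP1 enzymes, 13 of 14 further AhR-responsive enzymes and liver targets passed the filter. In CCl4 against control livers 8 rose and 3 fell, where 26.3% of all genes rose and 21.2% fell, with a median of 0.88. With library sizes only 9 rose and 1 fell, where 11278 of the 21840 genes were called higher and 1061 lower. Members of this list did not share a direction. Gsta1, a glutathione transferase, averaged 32.8 ± 12.4 CPM in CCl4 livers and 2.12 ± 1.71 CPM in control livers (3.95 ± 0.58, edgeR adjusted p = 3.56e-05). Cd36, the fatty acid transporter, averaged 84.6 ± 9.04 CPM and 43.7 ± 16.2 CPM in the same groups (0.95 ± 0.18, edgeR adjusted p = 0.000303). Ugt1a6b, a glucuronosyltransferase, averaged 54.7 ± 15.2 CPM and 104 ± 8.48 CPM (-0.93 ± 0.15, edgeR adjusted p = 6.37e-05). Nqo1, the quinone reductase, was chosen here after its values were seen, as the best known further target, and it rose by 1.06 ± 0.30 (edgeR adjusted p = 0.00769).

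Of these 13, 2 rose and 2 fell in CCl4_PTH against CCl4 livers, with a median of -0.19, where 7.1% of all genes rose and 4.95% fell. Without CCl4_PTH 1, 2 rose and 4 fell, with a median of -0.46, where 17.4% of all genes were called. The further lower calls were Nqo1 (-0.81, edgeR adjusted p = 0.0232) and the hepatokine Fgf21 (-4.72, edgeR adjusted p = 0.00137). Fgf21 was low and variable, at 5.45 ± 5.15 CPM in CCl4 livers and 0.73 ± 1.28 CPM in CCl4_PTH livers, with 3.34 CPM in CCl4_PTH 1. Its fold change without that liver thus rests on values near the floor. Gsta1 averaged 5.44 ± 3.44 CPM in CCl4_PTH livers and 32.8 ± 12.4 CPM in CCl4 livers (-2.59 ± 0.54, edgeR adjusted p = 0.00699). Ugt1a6b averaged 86.7 ± 9.63 CPM and 54.7 ± 15.2 CPM (0.66 ± 0.15, edgeR adjusted p = 0.00907). Against control livers 0 of the 13 were called in edgeR in CCl4_PTH livers (5 at an unadjusted p under 0.05, 3 in DESeq2), where 27.7% of all genes were called. Without CCl4_PTH 1, Gsta1 was called higher (1.57, edgeR adjusted p = 0.0244) and Fgf21 lower (-2.50, edgeR adjusted p = 0.0293), and without controls 1 and 8 2 were called higher. Gsta and Ugt1a genes share long stretches of sequence, so reads may be split among their copies and these values are uncertain.

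The genes of tryptophan breakdown, whose products include AhR ligands such as kynurenine and kynurenic acid, moved mostly one way. Of 12 that passed the filter, 9 fell and 1 rose in CCl4 against control livers, where 21.2% of all genes fell and 26.3% rose. Their median was -0.81. With library sizes only 4 fell and 1 rose, where 1061 of the 21840 genes were called lower and 11278 higher. Ido2, which opens the indole ring of tryptophan, averaged 13 ± 4.8 CPM in CCl4 livers and 37.7 ± 10.6 CPM in control livers, a log2 fold change of -1.53 ± 0.23 (edgeR adjusted p = 2.62e-05). Haao, which acts later on the way to NAD, averaged 60.7 ± 23 CPM and 171 ± 50.4 CPM (-1.49 ± 0.25, edgeR adjusted p = 9.62e-05). Kmo, which hydroxylates kynurenine, changed by -0.92 ± 0.14 (edgeR adjusted p = 4.08e-05). The one gene that rose was Acmsd, which diverts the pathway away from NAD (1.26, edgeR adjusted p = 0.000503), named after its value was seen.

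Of the same 12 genes, 7 rose and 0 fell in CCl4_PTH against CCl4 livers, where 7.1% of all genes rose and 4.95% fell. Their median was 0.68. With library sizes only 3 rose and 0 fell, where 476 of the 21840 genes were called higher and 622 lower. Ido2 averaged 35.2 ± 6.46 CPM in CCl4_PTH livers and 13 ± 4.8 CPM in CCl4 livers (1.44 ± 0.23, edgeR adjusted p = 0.00115). Haao averaged 138 ± 33.8 CPM and 60.7 ± 23 CPM (1.18 ± 0.25, edgeR adjusted p = 0.00681). Kmo changed by 0.58 ± 0.14 (edgeR adjusted p = 0.0139). Against control livers, Acmsd was the only one of the 12 called in CCl4_PTH livers, where 27.7% of all genes were called. Hepatocytes make most of these enzymes. Of 8 hepatocyte markers, 5 fell in CCl4 against control livers with a median of -0.60, where 21.2% of all genes fell. In CCl4_PTH against CCl4 livers 1 of the 8 (Apoa2) rose and 0 fell, where 12.1% of all genes were called, and the median was 0.37. Without CCl4_PTH 1 Apoa2 rose, Ahsg fell and the median was 0.20. The part of hepatocyte content in the tryptophan genes was not tested.

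**Figure D4:**
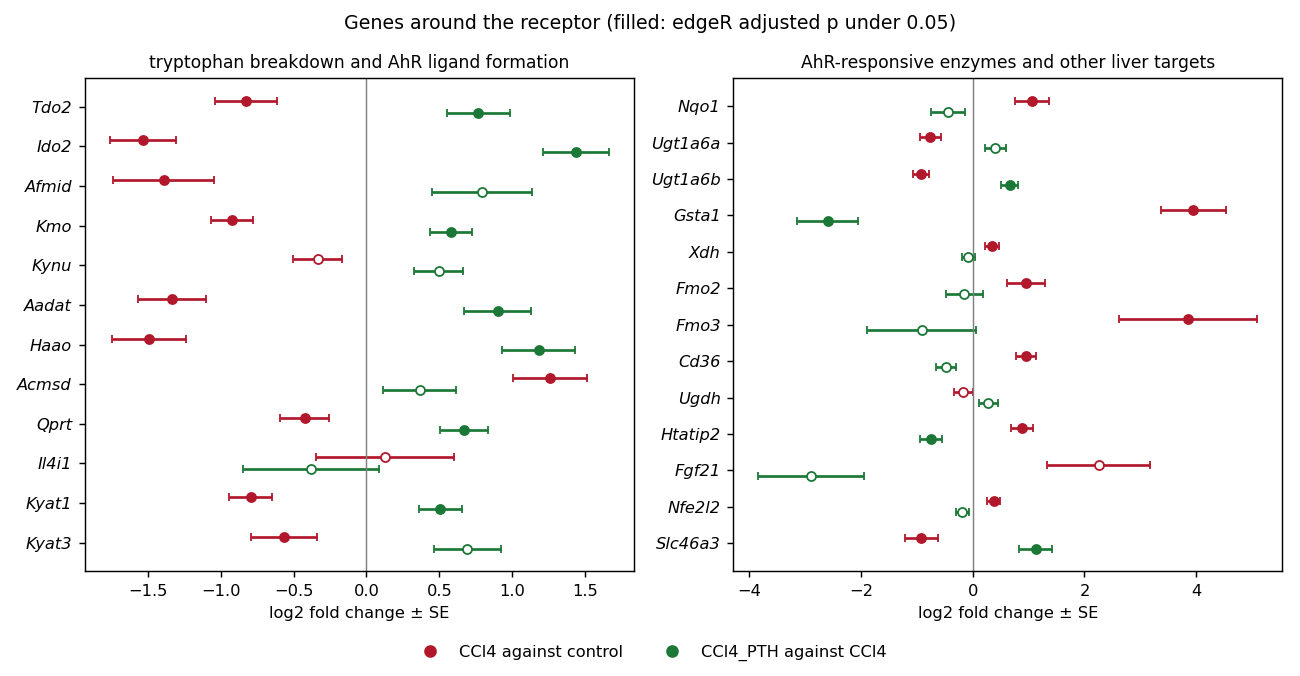
Log2 fold change (x axis) ± standard error of the tested genes of tryptophan breakdown (left) and of further AhR-responsive genes (right), in CCl4 against control livers (red) and CCl4_PTH against CCl4 livers (green). Filled points passed the edgeR threshold. On the left 9 red points are called below 0 and 7 green ones above 0, and on the right called points lie on both sides.

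Genes with the most similar profile over the 18 livers were found by the root mean square difference of log2 CPM after centring each gene on its own mean, among 11814 protein-coding genes of at least 1 CPM. For Cyp1a2 these were the kinase Dclk3 (0.43), the membrane peptidase Mme (0.44) and the glutathione transferase Gsta4 (0.54), where the median gene stood at 1.42. All had their lowest value in CCl4_PTH 1, with 0.519, 2.82 and 1.31 CPM, so that liver weighs heavily in the match. Dclk3 averaged 7.90 ± 3.89 CPM in CCl4_PTH, 3.45 ± 1.59 CPM in CCl4 and 8.50 ± 1.94 CPM in control livers. For Cyp1b1 they were the annexin Anxa1 (0.39), the secreted peroxidase Gpx3 (0.39) and the matrix protein Olfml3 (0.40), against a median of 1.52. Anxa1 averaged 9.93 ± 5.5 CPM, 11 ± 2.75 CPM and 1.59 ± 0.389 CPM in the same groups.

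For Tiparp the closest were the interleukin receptor subunit Il13ra1 (0.16), the glycosyltransferase Mgat5 (0.24) and the tubulin Tubb5 (0.25), against a median of 0.65. Il13ra1 shared the single high value, with 68.1 CPM in CCl4_PTH 1 and a group mean of 36.1 ± 16.2 CPM in CCl4_PTH, 33.1 ± 8.33 CPM in CCl4 and 19.2 ± 4.5 CPM in control livers. Arnt was closest to Arid2 (0.10), Nedd4 (0.11) and Klhl9 (0.11), and Ahr to Kdelr1 (0.15), Drg1 (0.17) and Taf15 (0.17), all genes that differ little between livers. For the sparse genes the matches were loose. Ahrr was closest to Pla2g16 (0.67), Trpm2 (0.77) and Il2rb (0.78), and Cyp1a1 to Wfs1 (0.64), Xndc1 (0.64) and Rint1 (0.64), where the median gene stood at 1.17 for Ahrr and 0.86 for Cyp1a1.

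**Figure D5:**
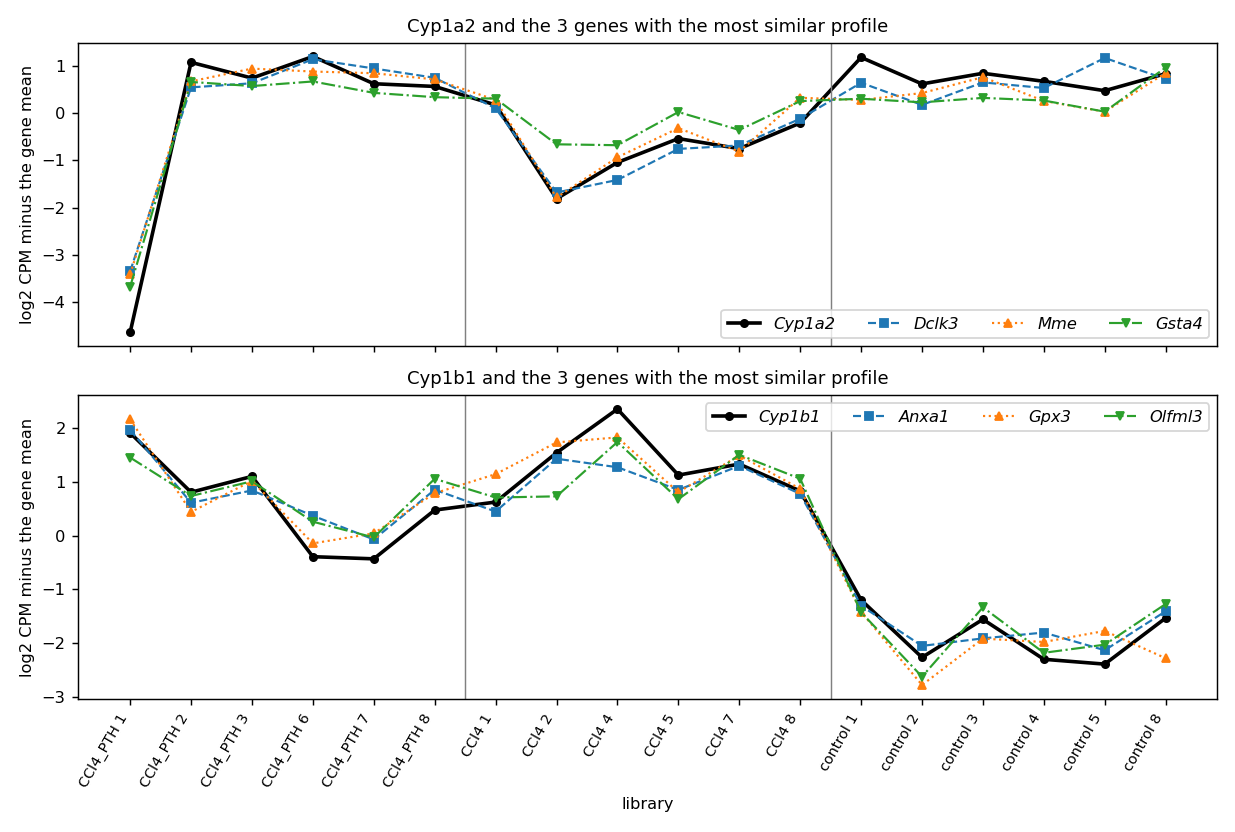
Log2 CPM minus the mean of each gene (y axis) in the 18 libraries, for Cyp1a2 (top) and Cyp1b1 (bottom) with the 3 most similar genes of each. In the top panel all 4 lines have their minimum at CCl4_PTH 1, and in the bottom panel all 4 lie lowest in the control libraries.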

How the data were processed

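Per the labels' protocols, liver RNA was extracted with TRIzol, depleted of ribosomal RNA, made into NEBNext libraries and read as 150-base pairs. Per the submitters' processing notes, HISAT2 2.2.1, StringTie 2.1.5 and build GRCm38 were used, and how reads were counted is not stated. The table deposited by the authors holds estimated counts per gene, as whole numbers not scaled to depth. GENCODE M21, matched by 54723 of 54752 identifiers, gave coordinates and exon lengths. All comparisons came from one edgeR 4.0.16 fit in R 4.3.3 (TMM, filterByExpr with minimum count 10, robust quasi-likelihood F test, 3 groups, no block), with Benjamini-Hochberg adjustment. A standard error is the log2 fold change over the root of F, and 95% intervals are the normal ones from it. Ratios and profiles used log2 CPM with a prior count of 0.5, and 5 ratios were compared by exact permutation. Libraries of a group differed by more than sampling noise in all 45 pairs. The fit was run on simulated counts with few changed genes, balanced in direction, and no outlying library. This setting differs from the livers here, so it does not show how the fit behaves on them. Beside the members, the 3 genes of each list with the smallest p in CCl4 against control livers and the 3 nearest profiles are named. The members, lists and tests were chosen with earlier results of these data known. Alternatives were other scalings, no filter, DESeq2 1.42.0, fits of 2 groups, a replicate block and leaving out libraries.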

Additional observations from a re-analysis of the deposited data

Results flagged for a closer look

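In 6 of 36 groups of 6 values, 1 library lay far from the rest by the Dixon criterion (gap over range above 0.625), and 5 of the 6 concern CCl4_PTH 1. Chance gives about 1 in 20 per group, but the groups are not independent, since the ratios reuse the values of the members. The flags on Cyp1a2 and its ratios in CCl4_PTH 1 all hold the same Cyp1a2 value, of 661 counts. The 6 flags therefore cannot be set against that share. Its log2 CPM of Cyp1a2 was 2.49, against 7.69 to 8.32 in the other 5 CCl4_PTH livers. Its log2 CPM of Tiparp was 4.03, against 2.55 to 2.87. Its Cyp1a2 relative to hepatocyte markers was -9.14, against -3.56 to -2.89. Its hepatocyte markers summed to 55400 CPM, the highest of the group, but they did not share a direction. Fgb (9620 CPM, group mean 3050), Apob, Ahsg, Apoa1 and Hnf4a were above their group means there, and Alb (24000 CPM, group mean 26400), Apoa2 and Ttr below. Its Cyp1a2 relative to pericentral markers was -2.48, against 1.43 to 2.29. Its log2 ratio of Cyp1a2 to Cyp1a1 was 4.13, against 8.39 to 10.42. In the CCl4 group, CCl4 2 had a Cyp1a2 relative to pericentral markers of 1.15, against 2.80 to 3.24 in the other 5. The cause of these values was not tested.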

How the results depend on the processing

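Cyp1b1 kept its direction and its side of the threshold in every alternative run for all 3 comparisons, and Tiparp in CCl4 against control livers did so too. With library sizes only, 6 members passed in CCl4 against control livers, where 11278 of the 21840 genes were called higher and 1061 lower. In the same setting 4 members passed in CCl4_PTH against control livers, where 9917 genes were called, and 1098 genes were called in CCl4_PTH against CCl4 livers. The shares of higher calls were then 91.4%, 43.4% and 96.4%, against 55.3%, 58.9% and 62.8% with TMM, for CCl4 against control, CCl4_PTH against CCl4 and CCl4_PTH against control livers, and the medians of all genes 0.63, -0.13 and 0.51. Signs turned with library sizes only for Ahr (0.557) and Arnt (0.546) in CCl4 against control, Ahr (-0.050) and Tiparp (-0.120) in CCl4_PTH against CCl4, and Cyp1a1 (0.312) and Cyp1a2 (0.296) in CCl4_PTH against control livers. They also turned with ribosomal loci left out for Ahr (-0.006) in the last comparison, and without controls 1 and 8, an alternative chosen after seeing the data, for Arnt (0.019) in CCl4 against control and Ahr (-0.032) and Ahrr (-0.179) in CCl4_PTH against control livers. With the replicate block, although same-numbered livers did not deviate together (correlations of -0.172 to 0.0655 over 13 pairs), 84 genes were called in CCl4_PTH against CCl4, 3343 genes and 1 member (Cyp1b1) in CCl4_PTH against control livers, Cyp1a2 was no longer called in CCl4 against control livers (-1.341, adjusted p above 0.05), Arnt was 0.005 there and Tiparp -0.072 in CCl4_PTH against CCl4 livers. Pairing by number gave mean ratio differences, in CCl4 against control livers, of -0.864 and 1.326 (Cyp1a2 to hepatocyte and pericentral markers), 0.980 (Cyp1b1 to stellate markers) and -2.231 (Cyp1a2 to Cyp1a1), none of which could pass with 5 pairs (smallest exact sign-flip p 0.0625), and of -0.222 for Cyp1a2 to hepatocyte markers in CCl4_PTH against CCl4 livers. Leaving out 1 library at a time, genes called in CCl4_PTH against CCl4 ranged from 1509 to 3854 (1523 and 1598 without CCl4 4 and 7, 1704 and 1509 without CCl4_PTH 6 and 7), members called from 0 to 1, and in CCl4_PTH against control livers from 1 to 2. Over those settings Ahr ranged from -0.104 to 0.085, -0.059 to 0.112 and -0.083 to 0.067 in the 3 comparisons, Arnt from -0.092 to 0.042 in CCl4 against control, Tiparp from -0.267 to 0.115 in CCl4_PTH against CCl4, and in CCl4_PTH against control livers Ahrr from -0.111 to 0.338, Cyp1a1 from -0.341 to 0.002 and Cyp1a2 from -0.343 to 0.063. In the same order of comparisons Cyp1a2 to hepatocyte markers ranged from -1.002 to -0.663, 0.081 to 1.333 and -0.777 to 0.474, Cyp1a2 to pericentral markers from 1.274 to 1.692, -1.892 to -0.868 and -0.438 to 0.517, Cyp1b1 to stellate markers from 0.79 to 1.066 in CCl4 against control, Cyp1a2 to Cyp1a1 from 1.078 to 2.336 and -1.004 to 0.254 in the last 2, and Ahrr to Ahr from -0.094 to 0.447 in CCl4_PTH against control livers. The cause of these changes was not tested. Ahrr and Cyp1a1 had 4 to 139 counts per library, which limits what could be called for them.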
